A study of Mus musculus with 6 samples.

Results

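The 10 genes described here are 9 apolipoprotein genes (Apoa1, Apoa2, Apoa4, Apoa5, Apob, Apoc1, Apoc3, Apoe and Apom) and Mttp, the gene of the microsomal triglyceride transfer protein. They were taken by name from a table of 20914 genes, and all 10 were found there and were among the 13725 genes tested. RNA was sequenced from mouse liver in 6 libraries, 3 labelled DOX and 3 labelled PBS. All 6 share the genotype label BucheKI/KI-Hep, a title with CKI and Alb-Cre, and the label of BDL treatment. The design text speaks of overexpressing butyrylcholinesterase in hepatocytes and of a BDL model. The abbreviations DOX, S10D and BDL are not spelled out in the labels (in mouse liver, BDL usually stands for bile duct ligation), and strain, age and sex are not given there. Alb-Cre is a recombinase driven by the albumin promoter, which is active mainly in hepatocytes. No library without BDL and none without the knock-in is among the 6. The labels do not say that each library came from its own animal, so every p-value here rests on library-to-library spread that could be technical.

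Apolipoproteins are the protein shell of the particles that carry fat and cholesterol in blood, and the liver makes most of them. In hepatocytes, Mttp loads lipid onto apolipoprotein B as it is made, which starts a very low density lipoprotein particle. Apoa1 and Apoa2 are the main proteins of high density lipoprotein (HDL). Apoe is a ligand by which receptors clear remnant particles, and Apoc1, Apoc3 and Apoa5 act on how fast lipoprotein lipase empties the particles. Some of these genes are neighbours in the genome. Apoa1, Apoc3, Apoa4 and Apoa5 lie within 43.3 kb of chromosome 9 (46228580 to 46271919 in GRCm38), with Apoc3 on the opposite strand, and Apoc1 and Apoe lie within 9.71 kb of chromosome 7 (19689481 to 19699188). Apoa2 is on chromosome 1 (171225054 to 171226379), Apob on chromosome 12 (7977648 to 8016835), Apom on chromosome 17 (35128997 to 35132050) and Mttp on chromosome 3 (138089854 to 138144968), and all 10 are annotated as protein coding.

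The start regions of 4 members are shown because 3 of them (Apoa4, Apoa1 and Apoa5) are neighbours on chromosome 9 whose values are set against each other, and the other, Apoa2, is the partner of Apoa1 in HDL. The sequences are from RefSeq's tables for GRCm38.p6, on the plus strand, 5′ to 3′, cut to the bases upstream of both the RefSeq and the GENCODE start. For Apoa2 and Apoa5, which have a second start in that table, the window that ends at the GENCODE gene start is shown. Capitals mark the letters TATAAA (a core promoter box), TGTTTNC (core of the sites bound by FOXA factors) and CAAAGNNCA (a type bound by HNF4), each searched on both strands.
Apoa4 (chr9:46240594-46240695): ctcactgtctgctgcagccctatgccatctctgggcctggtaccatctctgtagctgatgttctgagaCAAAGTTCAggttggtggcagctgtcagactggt
Apoa1 (chr9:46228380-46228579): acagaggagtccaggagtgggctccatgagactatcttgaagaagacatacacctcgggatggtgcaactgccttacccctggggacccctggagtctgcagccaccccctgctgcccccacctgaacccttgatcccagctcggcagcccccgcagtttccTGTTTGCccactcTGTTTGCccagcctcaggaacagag
Apoa5 (chr9:46268383-46268632): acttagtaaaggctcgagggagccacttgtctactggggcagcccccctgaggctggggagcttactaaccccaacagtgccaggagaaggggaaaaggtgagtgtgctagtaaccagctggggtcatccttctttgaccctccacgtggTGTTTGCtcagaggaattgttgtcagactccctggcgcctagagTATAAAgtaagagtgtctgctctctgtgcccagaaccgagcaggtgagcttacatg
Apoa2 (chr1:171224804-171225053): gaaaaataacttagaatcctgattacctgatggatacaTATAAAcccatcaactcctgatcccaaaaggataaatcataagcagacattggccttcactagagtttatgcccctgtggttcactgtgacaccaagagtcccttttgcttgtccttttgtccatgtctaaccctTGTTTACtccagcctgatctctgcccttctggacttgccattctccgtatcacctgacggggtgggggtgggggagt

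Apoa4 held 1 match of the HNF4 type, 182 bases before its RefSeq start, and none of the other letters. Of all 32851 RefSeq windows, 2.22% held that type in the same 102 bases. Apoa1 held 2 FOXA cores, 88 and 75 bases before its start, where 14.7% of windows of 200 bases held at least 1. Apoa5 held a FOXA core and the letters TATAAA, 100 and 56 bases before the start used here, or 75 and 31 bases before its other RefSeq start. Apoa2 held a FOXA core and the letters TATAAA, 77 and 212 bases before the start used here, and its other window held no match. In windows of 250 bases, 17.8% of all held a FOXA core and 12.4% the letters TATAAA. A match is a description of letters, and no match says only that they are not in the window.

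Total gene counts were 33711852 to 41102844 in DOX and 32826493 to 40583148 in PBS, and the members had 3061 to 608501 counts per library. The 95% Wilson interval of a member's share of counts was at most 3.54% of its value to each side, which covers counting error only. Bche, the gene of butyrylcholinesterase, averaged 671 ± 269 CPM in DOX and 211 ± 29.7 CPM in PBS (SD, n = 3 each, all DOX above all PBS). It did not pass with edgeR (adjusted p = 0.106) and did with DESeq2 (adjusted p = 2.9e-08). CPM here are counts relative to the library size after scaling by edgeR's TMM factors, which were 0.902 to 1.0045 in DOX and 1.01 to 1.07 in PBS. Alb, the albumin gene, took 10.1%, 6.09% and 10.2% of all counts in DOX replicates 1, 2 and 3, and 4.87%, 5.81% and 5.59% in PBS replicates 1, 2 and 3. Markers of hepatocytes were all detected (18 of 18 tested), with a summed level of 120424 to 176217 CPM in DOX and 108694 to 123278 CPM in PBS, and 9 of 18 had a positive log2 fold change. Without Alb the sum was 59791 to 65879 CPM in DOX and 59830 to 65545 CPM in PBS. Cholangiocyte markers summed to 150 to 286 CPM in DOX and 300 to 450 CPM in PBS, and 12 of 12 had a negative log2 fold change. Endothelial markers summed to 170 to 317 CPM in DOX and 76.0 to 205 CPM in PBS, and 12 of 12 had a positive log2 fold change. Stellate cell and fibroblast markers summed to 285 to 622 CPM in DOX and 306 to 534 CPM in PBS, with 13 of 14 positive and a median of 0.26. Neutrophil markers summed to 12.7 to 20.2 CPM in DOX and 15.1 to 29.7 CPM in PBS, with 0 of 7 tested positive and a median of -0.52. The part of these marker shifts in the results below was not tested.

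None of the 10 members passed an adjusted p of 0.05 for DOX against PBS (edgeR quasi-likelihood test, Benjamini-Hochberg over all genes), where 4 of 13725 genes (0.0291%) did. DESeq2 called 1 member, Apom, where it called 0.863% of its tested genes higher, and limma-voom called 0. At an unadjusted p under 0.05, edgeR gave 4 members, all higher (Apom, Apoa4, Mttp and Apoa2), where 9.9% of all genes reached that level and 5.03% were higher. All 10 log2 fold changes were positive under TMM scaling, with a median of 0.24, beside 47% positive and a median of -0.02 over all genes. Scaled by library size only, 8 of 10 were positive and the median was 0.11, while that of all genes moved to -0.15. Together the 10 genes took 3.63%, 3.96% and 3.84% of all counts in DOX replicates 1, 2 and 3, against 3.57%, 3.59% and 3.61% in PBS replicates 1, 2 and 3. The mean share was 3.81 ± 0.165% in DOX and 3.59 ± 0.0219% in PBS (SD, n = 3 each). All DOX libraries lay above the PBS libraries, DOX replicate 1 by little, and the SD was larger in DOX. Apoe and Apoa1 made up 63.7% to 67.9% of the member counts in DOX and 65.1% to 66.7% in PBS. Without Apoe and Apoa1 the members took 1.17%, 1.44% and 1.37% of all counts in DOX replicates 1, 2 and 3. In PBS replicates 1, 2 and 3 this share was 1.19%, 1.21% and 1.26%. The groups then overlapped, with DOX replicate 1 the lowest of all libraries.

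**Figure D1:**
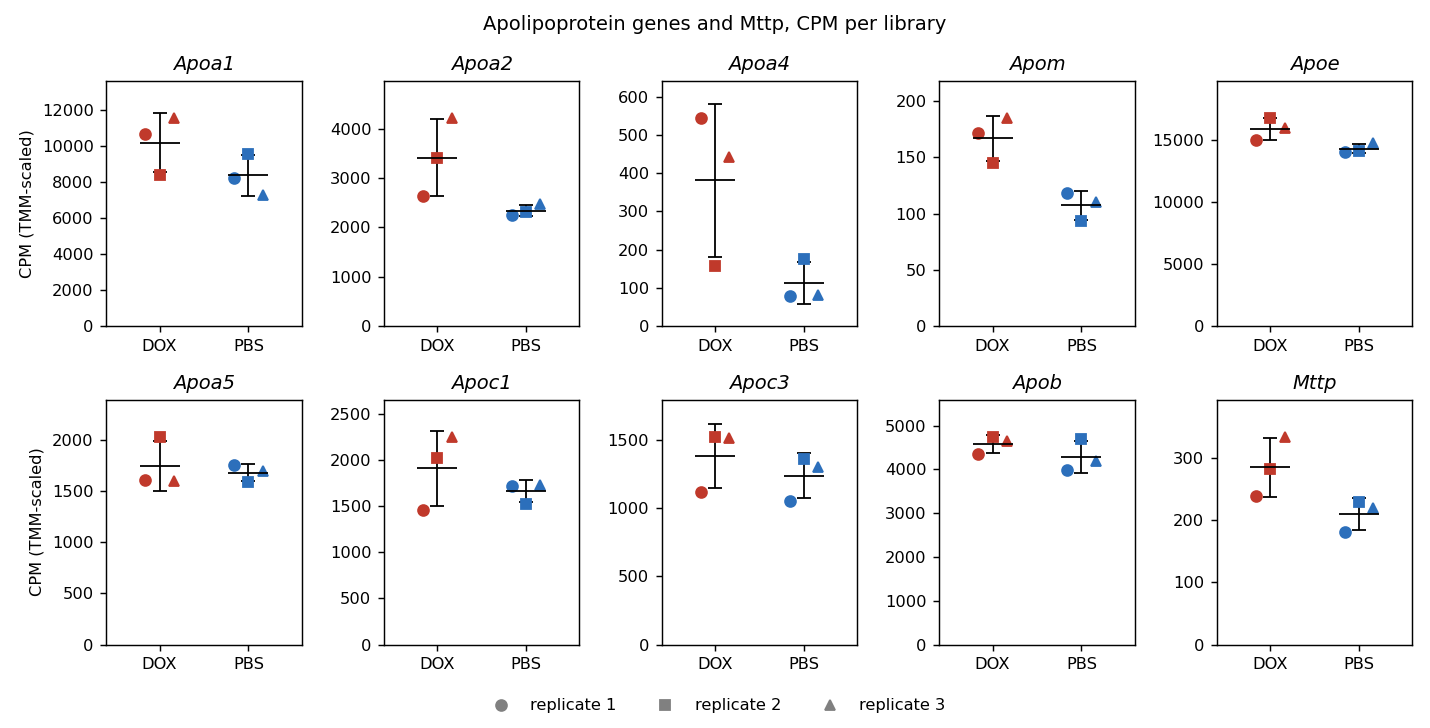
CPM (TMM-scaled, axes from 0) of each gene in the 3 DOX libraries, at the left of each panel, and the 3 PBS libraries, at the right, with the mean and SD as black bars and the replicate number as the symbol. Apom, Apoa2, Mttp and Apoe separate the groups on this scale, and Apoa4 is high in DOX replicates 1 and 3 only.

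Apom had the smallest p of the 10. It encodes an apolipoprotein of HDL that carries sphingosine 1-phosphate. Its level was 171, 145 and 185 CPM in DOX replicates 1, 2 and 3, against 119, 93.2 and 110 CPM in PBS replicates 1, 2 and 3. All DOX libraries lay above all PBS libraries. DOX over PBS came to 1.56-fold (95% interval 1.26 to 1.92), a log2 fold change of 0.64 (SE 0.13). This did not pass with edgeR (adjusted p = 0.216) and did with DESeq2 (adjusted p = 0.0032), within a range of 0.0032 to 0.437 over the alternatives. Apom was the only member whose groups also separated as a share of all counts: 0.0165%, 0.0145% and 0.0167% in DOX, against 0.0127%, 0.00938% and 0.0118% in PBS. By exact permutation, two-sided, p was 0.1, and 3 libraries a group cannot give less. Of the 10 members, 4 separated with DOX higher in CPM and 0 with DOX lower, beside 7.84% and 9.02% of all tested genes. In share of counts 1 of 10 separated with DOX higher, beside 2.56% of all tested genes.

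Apoa4 had the largest log2 fold change of the 10 and the largest spread. Its product is an apolipoprotein of HDL and of triglyceride-rich particles, made in intestine and liver. It stood at 543, 157 and 442 CPM in DOX replicates 1, 2 and 3, against 78.7, 175 and 81.9 CPM in PBS replicates 1, 2 and 3. DOX replicate 2 lay below PBS replicate 2, so the groups overlapped, while DOX replicates 1 and 3 lay above all other libraries. DOX over PBS came to 3.41-fold (95% interval 1.62 to 7.17), a log2 fold change of 1.77 (SE 0.47), and did not pass (edgeR, adjusted p = 0.35, range over the alternatives 0.0583 to 0.701). Without DOX replicate 2 it was 2.15, and without DOX replicate 1 it was 1.43. The coefficient of variation was 52.5% in DOX and 49.0% in PBS, where that of the other members was at most 23.1% in DOX and 13.8% in PBS. The same DOX replicates 1 and 3 had the highest share of Alb and the highest summed endothelial markers (317 and 289 CPM). PBS replicate 2, with the highest Apoa4 of its group, also had the highest Alb share of that group (5.81%). Its endothelial sum was the lowest of all libraries (76.0 CPM). The part of the Alb share and the endothelial markers in the Apoa4 values was not tested. Since Apoa4 is also an enterocyte gene, markers of that cell were examined. Of 12 listed, 8 were in the table, and Lct, Reg3b, Reg3g and Muc2 had at most 3 counts in a library. The summed level of the 8 was 15.6 to 18.5 CPM in DOX and 8.86 to 17.9 CPM in PBS. Fabp2, the intestinal fatty acid binding protein gene, made up most of it, with 11.9, 12.3 and 15.5 CPM in DOX and 5.52, 11.4 and 5.99 CPM in PBS. Its level in PBS replicate 2, where Apoa4 was also the highest of the PBS libraries, was close to that of DOX replicates 1 and 2. Of the 3 enterocyte markers tested, Fabp2 alone had a positive log2 fold change. Slc5a1, an intestinal glucose transporter, stood at 2.48, 3.13 and 2.51 CPM in DOX and 2.61, 4.60 and 3.16 CPM in PBS, and Vil1 had a log2 fold change of -0.23 (SE 0.52). The part of these markers in the Apoa4 values was not tested either.

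Apoa1, the main protein of HDL, lies next to Apoc3 and Apoa4 on chromosome 9. It took 1.03%, 0.843% and 1.04% of all counts in DOX replicates 1, 2 and 3, against 0.880%, 0.966% and 0.780% in PBS replicates 1, 2 and 3. The groups overlapped (exact two-sided permutation p = 0.3). As with Apoa4, DOX replicates 1 and 3 were the highest and PBS replicate 2 the highest of its group. Its log2 fold change was 0.29 (SE 0.20, edgeR adjusted p = 0.672). Per length, Apoa4 amounted to 3.01%, 1.11% and 2.27% of Apoa1 (deposited FPKM) in DOX and to 0.566%, 1.08% and 0.665% in PBS. All DOX libraries were above all PBS libraries in this ratio, by a narrow margin for DOX replicate 2 over PBS replicate 2 (exact two-sided permutation p = 0.1). The ratios of Apoc3, Apoa5 and Apoa2 to Apoa1 overlapped between groups (exact two-sided permutation p = 0.8, 0.6 and 0.4).

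Apoa2, the second protein of HDL, stood at 2632, 3404 and 4206 CPM in DOX replicates 1, 2 and 3, against 2243, 2307 and 2471 CPM in PBS replicates 1, 2 and 3. All DOX libraries lay above all PBS libraries, and they spread widely above a narrow PBS group. The ratio was 1.46-fold (log2 fold change 0.54, SE 0.19) and did not pass (edgeR, adjusted p = 0.435, range over the alternatives 0.0935 to 0.736). As a share of all counts it was 0.253%, 0.342% and 0.379% in DOX and 0.239%, 0.232% and 0.264% in PBS. There the groups overlapped, because DOX replicate 1 lay below PBS replicate 3 (exact two-sided permutation p = 0.2). With Alb left out of the total they did not overlap, and then 3 of 10 members separated (Apoa2, Apom and Mttp), beside 4.09% of all genes.

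Mttp and Apob are the pair that starts a very low density lipoprotein particle. Mttp stood at 239, 282 and 333 CPM in DOX replicates 1, 2 and 3, against 180, 228 and 219 CPM in PBS replicates 1, 2 and 3. The DOX libraries lay above all PBS libraries, DOX replicate 1 by little. Mttp was 1.36-fold higher in DOX (log2 fold change 0.45, SE 0.15), which did not pass (edgeR, adjusted p = 0.428, range over the alternatives 0.195 to 0.736). As a share of all counts Mttp overlapped between groups, at 0.0229%, 0.0283% and 0.0300% in DOX and 0.0192%, 0.0230% and 0.0234% in PBS (exact two-sided permutation p = 0.3). Trmt10a on the opposite strand overlaps the Mttp locus and had at most 190 counts per library, against at least 7534 for Mttp, and Gm43691 overlaps it too.

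Apob, the structural protein of very low and low density lipoprotein, took 0.418%, 0.476% and 0.419% of all counts in DOX replicates 1, 2 and 3, against 0.426%, 0.472% and 0.447% in PBS replicates 1, 2 and 3. The groups overlapped throughout (exact two-sided permutation p = 0.6). Its log2 fold change was 0.10 (SE 0.15, 95% interval -0.26 to 0.45, edgeR adjusted p = 0.861), and -0.03 when scaled by library size only. Per length, Mttp amounted to 16.1%, 17.4% and 21.0% of Apob in DOX and to 13.2%, 14.3% and 15.3% in PBS. In this ratio, which does not depend on library scaling, all DOX libraries lay above all PBS libraries (exact two-sided permutation p = 0.1). The ratio of Apoc1 to Apoe, also computed per length, overlapped between groups (exact two-sided permutation p = 0.9). How often the ratios of other gene pairs separate the groups was not computed.

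Apoe was the member with the largest share of counts. It took 1.441%, 1.678% and 1.434% in DOX replicates 1, 2 and 3, against 1.499%, 1.418% and 1.573% in PBS replicates 1, 2 and 3. The groups overlapped (exact two-sided permutation p = 0.8). In TMM-scaled CPM they did not, with 14997 to 16714 CPM in DOX and 14045 to 14730 CPM in PBS, so that for Apoe the separation depended on the scaling. The log2 fold change was 0.15 (SE 0.18, edgeR adjusted p = 0.805), and 0.02 when scaled by library size only. Apoe and Apoc1 are also expressed by macrophages. Markers of macrophages (15 of 15 tested) summed to 1254 to 1677 CPM in DOX and 1457 to 1510 CPM in PBS, and 8 had a positive log2 fold change.

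Apoc1, Apoc3 and Apoa5 did not separate the groups in CPM, FPKM or any of the shares computed. Apoc1, which slows the uptake of remnant particles, took 0.140%, 0.203% and 0.203% of all counts in DOX replicates 1, 2 and 3, against 0.184%, 0.154% and 0.185% in PBS replicates 1, 2 and 3. DOX replicate 1 was the lowest of all libraries for this gene. Its log2 fold change was 0.20 (SE 0.18, edgeR adjusted p = 0.742). It was 0.06 when scaled by library size only, 0.07 without DOX replicate 3 and 0.37 without DOX replicate 1. Apoc3, an inhibitor of lipoprotein lipase, took 0.107%, 0.153% and 0.137% in DOX and 0.113%, 0.137% and 0.139% in PBS. By share DOX replicate 1 was again the lowest, and in CPM PBS replicate 1 was. The log2 fold change of Apoc3 was 0.16 (SE 0.17, edgeR adjusted p = 0.788). That value was 0.03 when scaled by library size only, 0.06 without PBS replicate 1 and 0.30 without DOX replicate 1. Apoa5, an activator of lipoprotein lipase, took 0.155%, 0.204% and 0.144% in DOX and 0.188%, 0.160% and 0.181% in PBS. By share, DOX replicate 2 was its highest library and the other DOX libraries its lowest, while in CPM PBS replicate 2 was the lowest. Its log2 fold change was 0.06 (SE 0.15, 95% interval -0.29 to 0.40, edgeR adjusted p = 0.924), and -0.07 when scaled by library size only. Gm47544, on the opposite strand, overlaps Apoa5, and Gm47528 and Gm10680 overlap Apoa4. The sources used here do not say whether counting used strand.

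**Figure D2:**
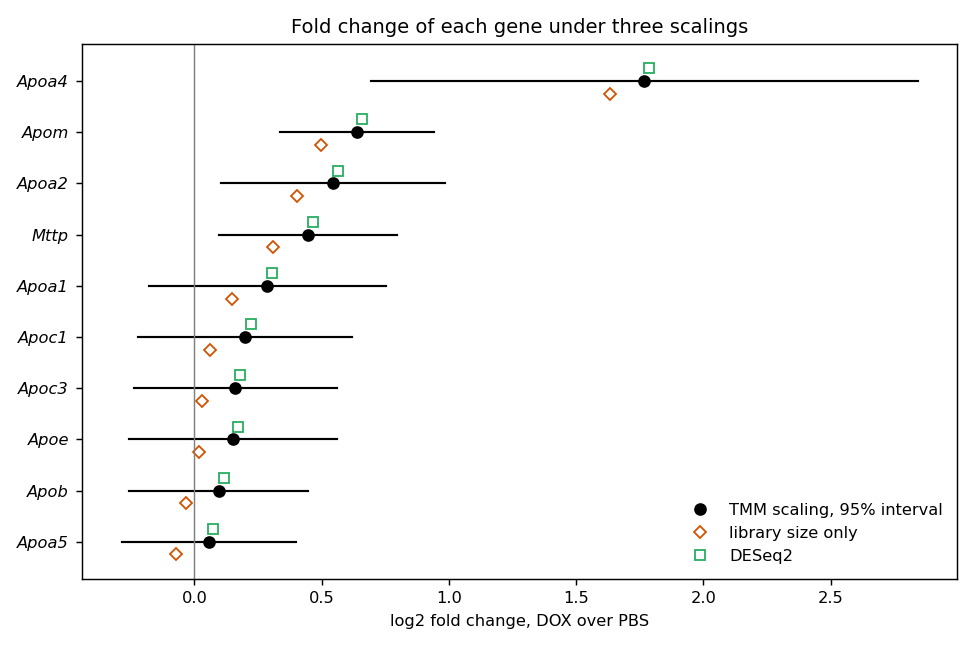
Log2 fold change of DOX over PBS for each gene with TMM scaling (dot and 95% interval), with library size only (diamond) and with DESeq2 (square). Apoa4 is at 1.77 with the widest interval, and the values of Apob and Apoa5 change sign with library size only.

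The libraries of the DOX group differed in which members were high. DOX replicate 3 was the highest of the 6 libraries for 5 members and DOX replicate 2 for 4, while Apoa4 was highest in DOX replicate 1. Relative to the PBS mean on the log2 CPM scale, DOX replicate 1 was at 2.38 for Apoa4 and 0.68 for Apom, but at -0.19 for Apoc1 and -0.14 for Apoc3. DOX replicate 2 was above the PBS mean for 10 of 10 members, with 0.01 for Apoa1 and 0.60 for Apoa4. DOX replicate 3 was above it for 9 of 10, with 2.09 for Apoa4, 0.85 for Apoa2 and 0.68 for Mttp. PBS replicate 1 was the lowest library for 6 of 10 members.

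**Figure D3:**
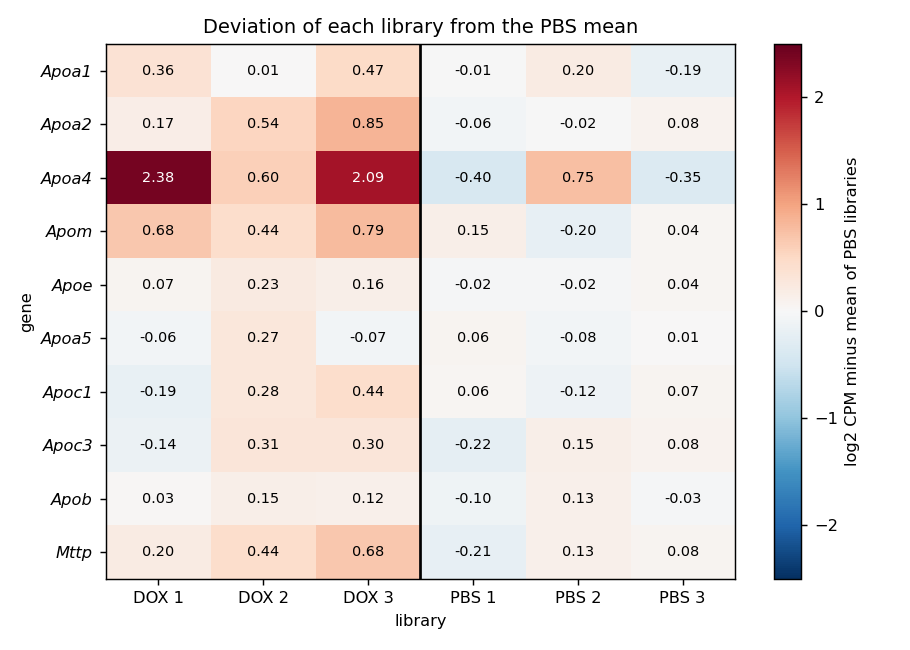
Log2 CPM of each gene (rows) in each library (columns, DOX left of the black line, PBS right) minus the mean of the PBS libraries. Apoa4 reaches 2.38 and 2.09 in DOX replicates 1 and 3 and 0.60 in DOX replicate 2, while Apom is at 0.79 and Apoa2 at 0.85 in DOX replicate 3.

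Levels of different genes were compared per length, in the deposited FPKM (counts scaled by gene length and library total). Apoa1 was the highest member at 9823 ± 1121 FPKM in DOX and 8858 ± 944 FPKM in PBS (SD, n = 3 each), and by its mean over the 6 libraries it ranked number 4 of all genes. Apoe followed with 6220 ± 571 FPKM in DOX and 6135 ± 317 FPKM in PBS, below Apoa1 in 6 of 6 libraries. Apoc1 and Apoa2 came next, and their order was not stable, with Apoc1 above Apoa2 in 4 of 6 libraries. Then came Apoc3 with 1777 ± 312 FPKM in DOX and 1740 ± 198 FPKM in PBS, Apoa5 with 663 ± 126 FPKM in DOX and 697 ± 56.3 FPKM in PBS, and Apob with 314 ± 23.8 FPKM in DOX and 321 ± 16.6 FPKM in PBS, each below the one before it in all 6 libraries. Apom (208 ± 15.2 FPKM in DOX, 147 ± 22.2 FPKM in PBS) and Apoa4 (216 ± 111 FPKM in DOX, 69.6 ± 31.5 FPKM in PBS) overlapped in DOX and were in the order Apom above Apoa4 in 3 of 3 PBS libraries. Mttp was the lowest at 56.9 ± 7.79 FPKM in DOX and 45.9 ± 4.83 FPKM in PBS.

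**Figure D4:**
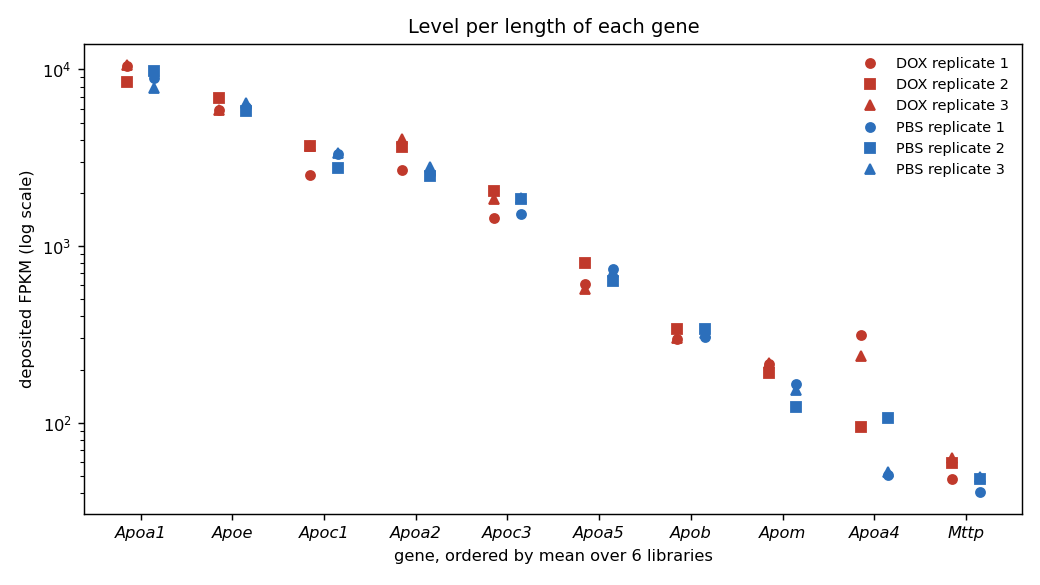
Deposited FPKM (log axis) of each gene in the 6 libraries, ordered by the mean over all libraries, with DOX left of PBS and the replicate number as the symbol. The order from Apoa1 to Mttp is kept by most neighbours, and Apoa4 has the widest range, from 50.4 to 313 FPKM.

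The other genes of the pathway came from 5 lists of known roles. With edgeR, 0 genes of any of them passed over all genes, where 0.0291% of all tested genes did. With DESeq2, 3 genes of these lists passed, all higher in DOX: Tm6sf2 (adjusted p = 0.0201), Lipa (adjusted p = 0.0425) and Srebf1 (adjusted p = 0.0495). Of all genes it tested, DESeq2 called 0.863% higher. For the counts that follow, 47% of all 13725 tested genes were positive (median -0.02). At an unadjusted p under 0.05 (edgeR), 690 of them (5.03%) were higher and 669 lower. In CPM, 7.84% of all tested genes separated with DOX higher and 9.02% with DOX lower. Of 23 tested genes of lipoprotein assembly and secretion, 16 were positive (median log2 fold change 0.11), and 3 were higher and 0 lower at an unadjusted p under 0.05. Tm6sf2, which promotes the loading of lipid onto very low density lipoprotein, stood at 54.0, 44.7 and 57.3 CPM in DOX and 36.7, 34.0 and 37.9 CPM in PBS. All its DOX libraries lay above all PBS libraries, with a log2 fold change of 0.52 (SE 0.11, edgeR adjusted p = 0.222). For Sec24d, a coat protein of vesicles that leave the endoplasmic reticulum, the log2 value was 0.37 (SE 0.12), and for Rab1b, a GTPase of the same route, 0.25 (SE 0.10), both with no overlap. Dgat1, an enzyme of triglyceride synthesis, had -0.27 (SE 0.13), with overlapping groups. Among 11 tested other apolipoprotein genes and related HDL proteins, 6 were positive (median 0.00), with 1 higher and 0 lower at an unadjusted p under 0.05. That 1 was Pon1, an HDL-bound esterase, at 556 ± 42.0 CPM in DOX and 414 ± 66.3 CPM in PBS (SD, n = 3 each). Apoc4, which lies in the Apoe cluster, had 0.31 (SE 0.15), Apol7a -0.17 (SE 0.13) and Apol9a -0.27 (SE 0.22), all with overlapping groups.

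Over all 13725 tested genes, 47% were positive, and 690 were higher and 669 lower at an unadjusted p under 0.05 (edgeR). Of 15 tested genes of plasma lipid enzymes and HDL remodelling, 12 were positive (median 0.15), with 4 higher and 0 lower at that level. They were Lipa, the lysosomal acid lipase (log2 fold change 0.40, SE 0.11), Pcyox1 (0.36, SE 0.10), Pon1 (0.43, SE 0.15) and Pltp, the phospholipid transfer protein (0.34, SE 0.14), with edgeR adjusted p = 0.368 to 0.484. Of these 4, Lipa passed with DESeq2, as given above. Of 16 tested receptor and uptake genes, 9 were positive (median 0.03), with 2 higher and 1 lower at that level. Vldlr, the very low density lipoprotein receptor, was at 0.440 ± 0.159 CPM in DOX and 1.09 ± 0.517 CPM in PBS, a low level in both with all DOX libraries below all PBS libraries (log2 fold change -1.29, SE 0.47, edgeR adjusted p = 0.457). Gpihbp1, which anchors lipoprotein lipase on capillary endothelium, stood at 13.7, 8.04 and 16.04 CPM in DOX and 7.87, 3.21 and 8.37 CPM in PBS. Its groups overlapped, and it belongs to endothelial cells, whose markers had positive log2 fold changes too. Their part in its value was not tested. In bulk samples, a change in the number of cells of a type and a change in RNA per cell cannot be told apart. For Commd1 the log2 fold change was 0.25 (SE 0.10), and for Cd36, a fatty acid receptor, 0.25 (SE 0.14). Of 26 tested transcription factors known for apolipoprotein genes, 12 were positive (median -0.05), with 1 higher and 2 lower at an unadjusted p under 0.05. Srebf1, the sterol regulatory factor of lipid synthesis, stood at 234 ± 6.77 CPM in DOX and 156 ± 35.8 CPM in PBS, with no overlap (log2 fold change 0.58, SE 0.16). Esrra had -0.50 (SE 0.18) and Rora 0.22 (SE 0.10), both with overlapping groups. Under TMM scaling, the list medians lay on both sides of 0 and closer to it than that of the 10 members. The members' median was 0.11 with library size only, and the list medians were not computed on that scale. Members and lists were chosen with earlier results of these data known, so their order is a description.

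**Figure D5:**
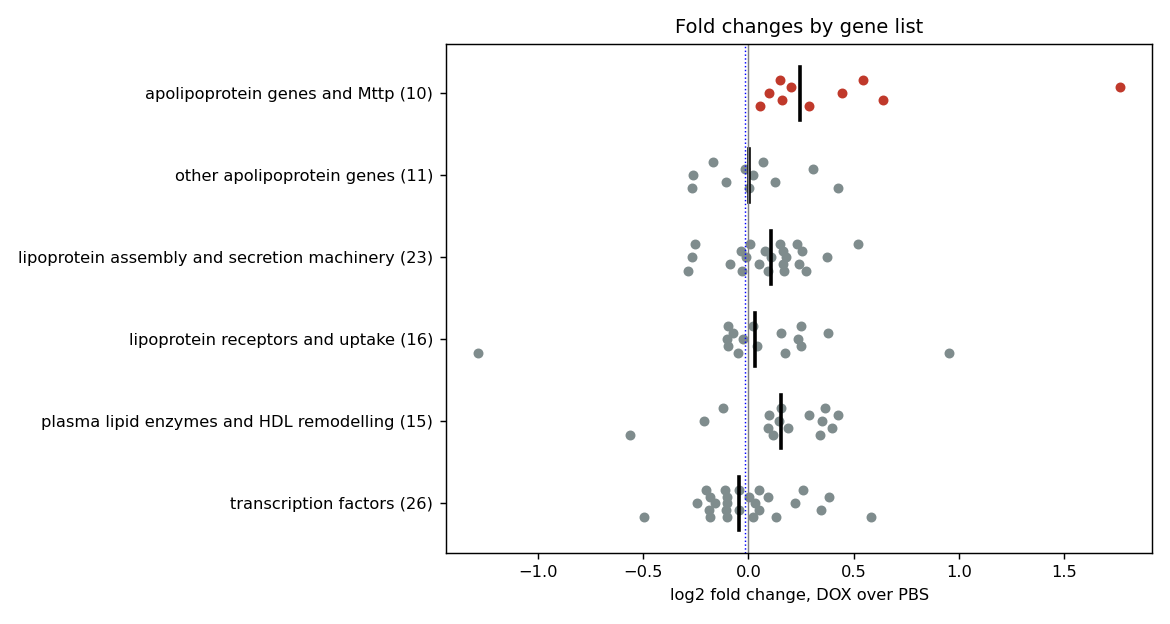
Log2 fold change of DOX over PBS for the tested genes of each list (number of genes in brackets), with the list median as a black bar and the median of all genes as a dotted line. The 10 apolipoprotein genes and Mttp have a median of 0.24, and the 5 other lists have medians of -0.05 to 0.15.

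The genes whose log2 CPM followed the mean of the 10 members most closely over the 6 libraries were Ube2a (Pearson r = 0.998), Stau1 (0.996), Rplp0 (0.996), Rps4x (0.994) and Mia3 (0.992), out of 7735 genes with a mean of at least 10 CPM. Rplp0 and Rps4x are ribosomal protein genes, and Mia3 is a receptor that helps large cargo leave the endoplasmic reticulum. The mean of the members gives weight to Apoa4, which deviated most from the PBS mean in each DOX library. In DOX replicates 1, 2 and 3 the members' mean deviation was 0.35, 0.33 and 0.58. Their median deviation was 0.12, 0.29 and 0.46. Closest to Apoa4 were Vps37b (0.997), Mad2l2 (0.98), Ttc13 (0.978), Enpp2 (0.976) and Dnajc16 (0.976). Among the members, the correlation with Apoa4 was 0.925 for Apoa1, 0.75 for Apom and -0.422 for Apoa5. These values describe 6 libraries that share their scaling factors, and the highest values among 7735 genes over 6 points are high by choice.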

How the data were processed

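Liver RNA was taken with a column kit and 1.3 ug per sample entered a SMARTER mRNA-Seq library kit, per the labels' protocols. The submitters' processing notes name GRCm38 and mm10. Aligner, counting tool, tool versions and strand setting: not given in the sources used here. Per gene, the authors deposited whole-number read counts and FPKM for all 6 libraries. The deposited FPKM equal counts over 1 length per gene and the column total (18913 of 18913 genes, relative tolerance 1e-05). Between replicates, chi-square over its degrees of freedom was 45.7 to 143.5, above sampling noise, and each library is 1 sample.

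The count test was edgeR 4.0.16 under R 4.3.3 (filterByExpr, TMM, quasi-likelihood with legacy = TRUE, all 6 libraries, no covariate), with Benjamini-Hochberg adjustment over 13725 genes and a threshold of 0.05. Standard errors come from the F statistic. Shares are a member's count over the library's total gene count, tested by exact two-sided permutation over 3 against 3 libraries. Members and lists were chosen with earlier results of these data known. Named are the 10 members, up to 4 genes of smallest p per list, 5 genes most like the members' mean and 5 most like Apoa4, Bche and Alb. A gene that this rule picks is not reported here. Alternatives were DESeq2 1.42.0, limma 3.58.1 (voom, and log2 of FPKM plus 1 or 0.1), other scalings and filters, no Alb, the replicate block, other denominators and leaving out each library. Gene coordinates are from GENCODE and promoter sequences from RefSeq, which held 8 of the 10 members, both on GRCm38. The windows of Apom and Mttp lie within transcripts annotated by GENCODE and are not shown.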

Additional observations from a re-analysis of the deposited data

How the results depend on the processing

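Over all genes, DESeq2 gave 176 genes changed (128 higher, 48 lower), no filter 61 (45 and 16), limma-voom 2 (1 higher), library size only 2 genes lower, and the replicate block 21 (17 and 4), where the main fit gave 4 (3 and 1). Leaving out 1 library gave 3 to 4 changed, 3 to 4 higher and 0 to 1 lower. Of the members, DESeq2 called 1 and every other alternative 0, the block included. The members' median log2 fold change was 0.11 with library size only and 0.097 on log2 of FPKM plus 1 or plus 0.1, which use no TMM factor, and 0.171 to 0.336 when 1 library was left out. The summed share differed by 0.221 percentage points (DOX minus PBS), by 0.383 without Alb in the total, 0.368 as a share of summed FPKM and 0.565 of the TMM-scaled library size, and by 0.148 to 0.311 when 1 library was left out. The log2 fold change of Apoa5 turned to -0.072 with library size only, -0.085 with either FPKM pseudocount, and ranged from -0.057 to 0.119 when 1 library was left out. That of Apob turned to -0.034 with library size only and -0.035 with either FPKM pseudocount. For shares, Apoa5 turned to 0.0067 and Apob to 0.0295 of the TMM-scaled library size, Apob to 0.00572 without Alb, and Apoe to -0.00429 as a share of summed FPKM. When 1 library was left out, share differences ranged from -0.0268 to 0.00324 (Apoa5), -0.0295 to 0.00156 (Apob), -0.00292 to 0.0286 (Apoc1), -0.00765 to 0.0153 (Apoc3) and -0.0597 to 0.0627 (Apoe) percentage points. Beyond the scaling each setting uses, the cause was not tested. The other 5 members kept their sign in all alternatives. Same-numbered DOX and PBS libraries had correlated deviations of 0.192, 0.13 and 0.00975, and differently numbered ones had -0.183 to 0.0565. These values do not settle whether the numbers mark pairs. The main fit used no pairs, and the fit with the replicate block is given above. The denominator without mitochondrially encoded genes could not be run, since 0 such genes are in the table. With 3 libraries a group, no exact p below 0.1 can be reached, and members have enough counts that the spread between libraries, not depth, sets the precision.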
